A study of Mus musculus with 40 samples.

Results

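The 10 genes of the MHC class II antigen presentation machinery were followed in CD11b+ cells sorted from naïve and glioma-bearing mouse brains. They are the rows listed as H2.Aa, H2.Ab1, H2.Eb1, Cd74, H2.DMa, H2.DMb1, H2.DMb2, H2.Oa, H2.Ob and Ciita in the deposited tables (hyphens are dots there), taken by name among 21894 protein-coding genes. RPKM are reads scaled by the exon length of the gene and by the size of the library, and all 10 genes passed the filter on low values (mean RPKM of 1 or more) in every comparison.

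Male mice of 10 to 12 weeks received glioma cells in the striatum, and an osmotic pump delivered water (vehicle), 7aaRGD, a peptide with the integrin-binding RGD motif, or 7aaRAE, a control peptide without this motif, both at 2 mg/ml. In the first experiment, GL261 murine glioma cells were implanted in C57BL/6 mice and CD11b+ cells were sorted at 21 days post-implantation (DPI) from vehicle, 7aaRGD and 7aaRAE mice and from naïve mice, with 2 pooled animals in each sample and 3 samples in each group. In the second experiment, cells were sorted at 28 DPI from single animals given vehicle (n = 4), 7aaRGD (n = 4), anti-PD-1 at 10 mg/kg (n = 3) or 7aaRGD with anti-PD-1, the combination (n = 3). By the study's methods these were C57BL/6 mice with GL261 cells, while the labels call them nude mice and name no glioma line. In the third, U87-MG human glioma cells were implanted in athymic nude mice, which lack mature T cells, and pools of 2 animals were sorted at 21 DPI from vehicle, 7aaRGD and 7aaRAE mice (3 samples per group, their columns bearing no replicate number and called samples 1 to 3 here in column order). By the study's methods, mice without anti-PD-1 in the second experiment received control IgG, which the labels do not mention. Sample 4 of the anti-PD-1 group, sample 4 of the combination group and the naïve nude mice were not analysed here, so these groups are incomplete and the U87-MG experiment has no naïve baseline. All groups of an experiment share 1 vehicle group, so comparisons with vehicle are not independent of each other.

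Class II molecules are surface heterodimers that present peptides from endocytosed proteins to CD4+ T cells. The α and β chains (H2-Aa with H2-Ab1, and H2-Eb1) assemble in the endoplasmic reticulum with the invariant chain Cd74, which blocks the groove and directs the complex to endosomes. There the H2-DM dimer (H2-DMa with H2-DMb1 or H2-DMb2) exchanges the last fragment of Cd74 for a peptide, and H2-DO (H2-Oa with H2-Ob), known mainly from B cells, restrains H2-DM. Ciita is the transactivator that interferon-γ induces and without which class II genes are hardly transcribed, and it acts through factors bound to the X and Y boxes of their promoters. Resting microglia carry little class II, and microglia and macrophages of an inflamed brain can carry much.

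The values are per length and can be set against each other between genes, but read totals are not given in the tables and the depth of the samples is unknown. Between 9327 and 9820 genes reached 1 RPKM in a sample. The markers of the sorted cells (Itgam, Ptprc, Csf1r, Aif1 and Tyrobp) summed to between 2131 and 4589 RPKM in every sample. The mice of 28 DPI are nude by the labels and C57BL/6 by the study's methods. H2-Ea-ps, the class II α chain gene of the E molecule that C57BL/6 mice carry in an inactive form, was at no more than 0.0976 RPKM in every GL261 sample of both time points and at 22.5 to 374 RPKM in every U87-MG sample. The differences between replicates of a group had 7 of the 8 possible dimensions in the 21 DPI GL261 table and 9 of 10 at 28 DPI, so 1 component of their spread is missing from these values, and 6 of 6 in the U87-MG table.

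In mm10 coordinates, the class II segment of chromosome 17 held H2-Oa (34092340-34095234), H2-DMa (34119541-34139101), H2-DMb2 (34143307-34151555), H2-DMb1 (34153072-34160230), H2-Ob (34238903-34254414), H2-Ab1 (34257689-34269419), H2-Aa (34282744-34287823) and H2-Eb1 (34305867-34316674), while Ciita is on chromosome 16 (10480059-10528418). H2-DMb1 and H2-DMb2 are near copies of each other. The study's methods leave out reads of low mapping quality, so reads that match both could be lost and the value of each is uncertain to that extent.

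The promoter stretches that carry the shared boxes are shown because Ciita, whose level is followed below, acts through factors at these boxes. RefSeq windows of build GRCm38.p6 (250 bases before to 50 after the gene start) were found for 7 of the 10 genes. A stretch of 65 bases is printed for each of 6 genes, 5′ to 3′ on the strand of the gene, from 50 bases before the Y box to 10 after it. The capitals mark the Y box (ATTGG) on the strand of the gene and, where present, an X box pattern (AACNNATGATG) on that strand. Both motifs were also searched on the opposite strand. The pattern was written from these very promoters, so its finding there is a description.
H2-Aa, chr17:34287857-34287921, minus strand: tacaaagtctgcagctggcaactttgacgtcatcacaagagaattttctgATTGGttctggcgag
H2-Eb1, chr17:34305758-34305822, plus strand: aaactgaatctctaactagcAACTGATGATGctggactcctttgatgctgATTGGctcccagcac
H2-DMb1, chr17:34153080-34153144, plus strand: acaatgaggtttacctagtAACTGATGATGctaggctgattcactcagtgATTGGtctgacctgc
H2-DMb2, chr17:34145109-34145173, plus strand: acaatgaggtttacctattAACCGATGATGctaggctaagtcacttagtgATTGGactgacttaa
H2-Oa, chr17:34092286-34092350, plus strand: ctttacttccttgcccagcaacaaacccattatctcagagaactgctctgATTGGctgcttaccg
H2-Ob, chr17:34238798-34238862, plus strand: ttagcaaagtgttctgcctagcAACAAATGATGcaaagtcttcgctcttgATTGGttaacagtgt

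The Y box of these 6 promoters began between 43 and 90 bases before the start that RefSeq gives. That start is 34287823 for H2-Aa and 34305867 for H2-Eb1, as in the gene models above, and 34238905 for H2-Ob, 34092379 for H2-Oa, 34153191 for H2-DMb1 and 34145249 for H2-DMb2. The last 4 lie downstream of the starts given above, so the stretches of H2-DMb1 and H2-DMb2 are inside those gene models. The printed Y box was chosen on the strand of the gene, and H2-Eb1 held a further one on the opposite strand (-35 from its start). Of all 32851 promoter windows, 37.4% held a Y box on either strand. The X box pattern was in 4 of the 7 promoters (H2-Eb1, H2-DMb1, H2-DMb2 and H2-Ob) and in 0.137% of all windows. An X box pattern followed by a Y box within 40 bases was found in 4 of the 32851 windows, and these were the 4 genes just named, with 28 to 31 bases from start to start. H2-DMa, which has 2 windows, held a Y box 198 bases before the RefSeq start of one of them. H2-Oa and H2-Ob, whose differences between tumor-bearing and naïve brains were least like those of the chain genes, both held the Y box.

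In the brains of GL261-bearing mice, the chain genes, the invariant chain and the transactivator were 16.1- to 23.2-fold higher than in naïve brains on the log2(RPKM + 1) scale, the H2-DM genes 3.32- to 5.24-fold higher, and H2-Ob was lower. This comparison sets CD11b+ cells of a tumor-bearing hemisphere against those of a naïve brain. The vehicle mice also had surgery and a pump delivering water, which the study's methods do not describe for naïve mice. Their part and that of the tumor cannot be told apart in this design. H2-Aa was at 78.0, 88.8 and 92.6 RPKM in the naïve samples and at 1572, 1720 and 1741 RPKM in the vehicle samples of 21 DPI. H2-Ab1 was at 117, 132 and 126 RPKM and at 2623, 3030 and 3130 RPKM. H2-Eb1 was at 145, 161 and 169 RPKM and at 2462, 2595 and 2663 RPKM. For each of the 3 chain genes, the lowest tumor sample was far above the highest naïve sample. With limma on log2(RPKM + 1), the scale of all differences given here, H2-Aa rose by 4.26 (standard error 0.081, adjusted p = 6.75e-09), H2-Ab1 by 4.54 (standard error 0.086, adjusted p = 6.75e-09) and H2-Eb1 by 4.01 (standard error 0.075, adjusted p = 6.48e-09).

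Cd74, the invariant chain, went from 520 ± 43.5 RPKM (SD, n = 3) in naïve samples to 9450 ± 491 RPKM (SD, n = 3) in vehicle samples, a rise of 4.18 (standard error 0.088, adjusted p = 9.39e-09). It ranked between 48 and 60 among protein-coding genes in naïve samples and was the highest of them in every GL261 sample at 21 DPI. Ciita was close to the filter in naïve samples, at 0.96, 1.18 and 1.51 RPKM, and at 36.8, 47.2 and 41.5 RPKM in vehicle samples. Its rise of 4.27 (standard error 0.115, adjusted p = 2.49e-08) depends on the pseudocount because its naïve level is near 1 RPKM, and it was 5.01 with a pseudocount of 0.1 and 2.91 with 5. The H2-DM genes rose less, H2-DMa from 53.0 ± 1.34 to 179 ± 15.3 RPKM, H2-DMb1 from 54.2 ± 1.99 to 277 ± 31.3 RPKM and H2-DMb2 from 5.07 ± 0.31 to 31.0 ± 4.03 RPKM (SD, n = 3 per group), or by 1.73, 2.33 and 2.39 on the log2 scale, with adjusted p from 1.08e-07 to 1.78e-07.

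The H2-DO genes did not share this change. H2-Ob, the β chain of H2-DO, was at 8.37, 7.92 and 8.70 RPKM in naïve and at 4.17, 2.90 and 4.39 RPKM in vehicle samples, and fell by 0.97 (standard error 0.119, adjusted p = 9.85e-05). H2-Oa, its α chain, was at 27.8, 26.7 and 25.1 RPKM in naïve and at 26.5, 34.2 and 37.8 RPKM in vehicle samples, which overlap, and its difference of 0.28 did not pass the threshold (adjusted p = 0.0539). Without vehicle sample 1 the difference of H2-Oa was 0.43 and passed (adjusted p = 0.000755), and with median-of-ratios scaling it was 0.45 (adjusted p = 0.0105), within a range over 13 alternatives of 0.000755 to 0.154. Thus 8 of the 10 genes rose, where 34.6% of all 9727 genes tested did, and 1 fell, where 48.2% did. The median over the 10 genes was 3.20, and over all genes -0.14. Median-of-ratios scaling moved the median of all genes to 0.01 and kept the sign of each of the 10 differences.

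**Figure D1:**
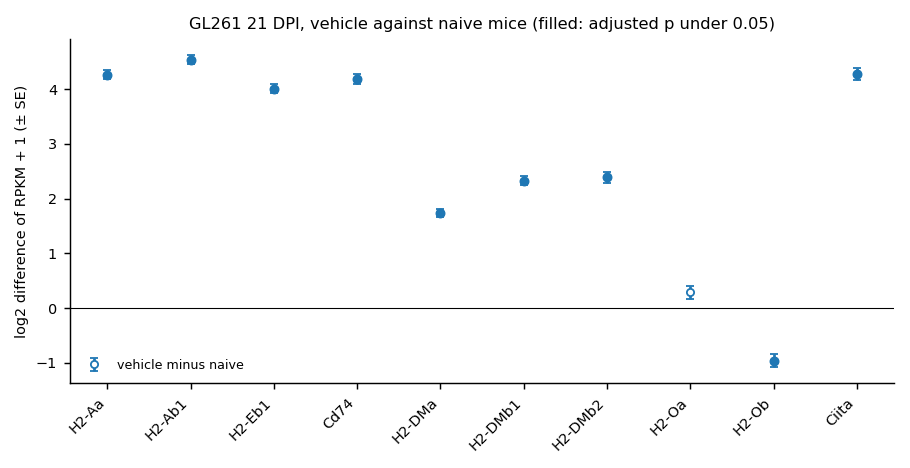
Difference between vehicle and naïve CD11b+ cells at 21 DPI for each class II gene, as log2 of RPKM + 1 with standard errors (3 samples per group); filled points passed the threshold. The chains, Cd74 and Ciita sit between 4.01 and 4.54, the H2-DM genes between 1.73 and 2.39, H2-Oa at 0.28 and H2-Ob at -0.97.

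The makeup of the sorted cells differed between naïve and tumor-bearing brains, and in bulk samples fewer cells of a type and less RNA per cell cannot be told apart. The 5 microglia markers (Tmem119, P2ry12, Sall1, Fcrls and Gpr34) summed to 6184 to 6403 RPKM in naïve and 319 to 526 RPKM in vehicle samples, and all 5 were lower in the test. The 4 monocyte markers (Ly6c2, Ccr2, Plac8 and Vcan) summed to 11.8 to 12.7 and to 686 to 1128 RPKM, and all 4 were higher. Of the 9 dendritic cell markers, 4 of the 6 tested were higher (Itgax, Ccr7, Flt3 and Itgae), their sum going from 28.2 to 32.1 RPKM in naïve to 202 to 229 RPKM in vehicle samples, with Xcr1 and Clec9a at most at 1.28 RPKM. The B cell genes Ms4a1 and Pax5 were at no more than 0.0825 RPKM in either group, and the B cell list summed to 21.5 to 23.1 and to 12.3 to 22.7 RPKM. Of its 2 genes tested, Cd22 was higher and Cd79b lower in vehicle samples. The part of these shifts in the class II differences was not tested.

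Among genes that act with class II molecules, some of those upstream of Ciita were higher and some lower, as were 34.6% and 48.2% of all genes. Of 14 inducers and X-Y box factors, 4 were higher and 6 lower in tumor-bearing than in naïve brains, with a median of -0.11. The kinase Jak2 (2.40) and the interferon-responsive factor Irf1 (2.59) were among those that rose, while Nfya, a subunit of the Y box factor (-1.29), and Ifngr1, the interferon-γ receptor chain (-1.59), were among those that fell. Of 11 processing genes tested of 12, 4 were higher and 5 lower, with a median of 0.05. Ctss, the protease that trims Cd74, was higher (4257 against 6216 RPKM, means, adjusted p = 0.000286) and Ctsd, an endosomal protease, was lower (3408 against 1034 RPKM, means, adjusted p = 9.67e-06).

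**Figure D2:**
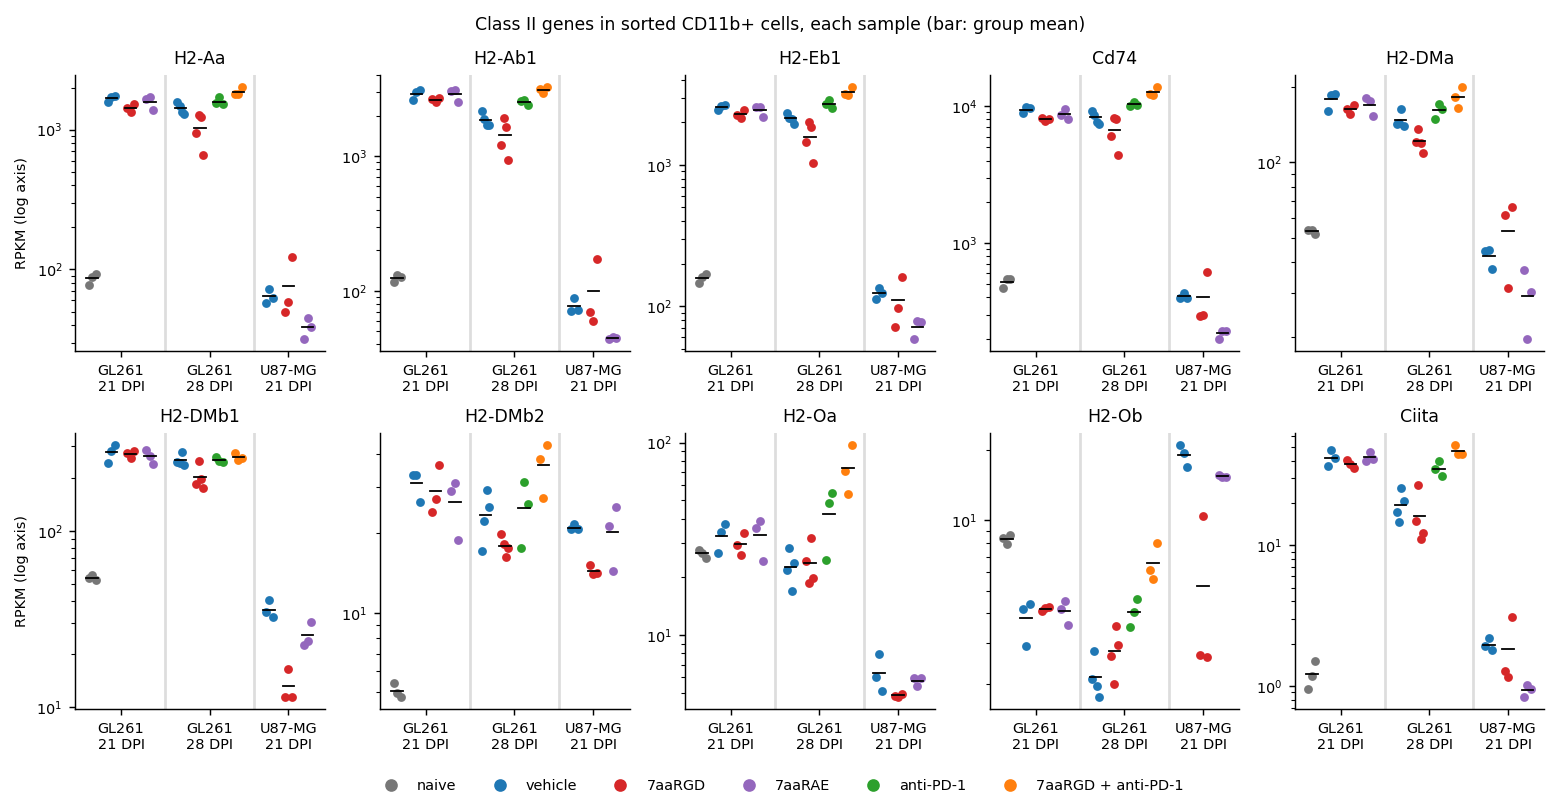
RPKM of each class II gene in each sample on a log axis, in 3 experiments separated by grey lines, with a bar at the group mean. The chains, Cd74 and Ciita are low in naïve and U87-MG samples and high in every GL261 sample, and H2-Ob is highest in U87-MG vehicle samples (16.9 to 21.0 RPKM).

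At 21 DPI, none of the 10 genes passed the threshold with 7aaRGD, with 7aaRAE or between the 2 peptides. With 7aaRGD, H2-Aa was at 1418, 1345 and 1519 RPKM, below every vehicle sample, with a difference of -0.23 (standard error 0.094, adjusted p = 0.333). Cd74 was at 8217, 7806 and 8130 RPKM, also below the vehicle samples of 8893, 9818 and 9640 RPKM, with a difference of -0.23 (standard error 0.084, adjusted p = 0.295). These were the 2 of 10 genes whose groups did not overlap with 7aaRGD on the lower side, as was so for 5.11% of all 9440 genes. In limma's test, 0 of 10 genes passed against 0.148% of all genes, and the median of the 10 differences was -0.14, against 0.02 over all genes. An unadjusted p under 0.05 was found for 2 of the 10, and for 1278 of all 9440 genes. The 5 microglia markers summed to 606 to 804 RPKM with 7aaRGD against 319 to 526 RPKM with vehicle. None of them passed, 3 had an unadjusted p under 0.05, and all 5 differences were above 0, with a median of 0.58. Their part in the class II values was not tested.

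With 7aaRAE the median difference from vehicle was -0.07 and the largest that of H2-DMb2, at -0.25. Here 0 of the 10 genes and 0% of all genes passed, and 0 of the 10 had an unadjusted p under 0.05, where 600 of all 9440 genes did. Cd74 was at 8671, 9602 and 8078 RPKM and H2-Aa at 1653, 1712 and 1388 RPKM, so that samples 1 and 2 lay within the vehicle range for H2-Aa and sample 3 below it. The 7aaRGD and 7aaRAE samples, at the same dose and time, were compared once in each tumor model. At 21 DPI in GL261 gliomas 0 of the 10 genes and 0% of all genes differed. None of the 10 had an unadjusted p under 0.05, where 520 of all 9440 genes did. The 95% intervals of the differences reached from -0.36 to 0.07 for H2-Aa, from -0.31 to 0.07 for Cd74 and from -0.37 to 0.07 for Ciita.

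At 28 DPI with 7aaRGD alone, 8 of the 10 genes had a mean below vehicle and none passed the threshold. H2-Aa was at 1583, 1467, 1331 and 1303 RPKM with vehicle and at 941, 1278, 1226 and 660 RPKM with 7aaRGD, so that all 7aaRGD samples were lower, by 0.51 on average (standard error 0.163, adjusted p = 0.169). Cd74 was at 9277, 8651, 7725 and 7443 RPKM with vehicle and at 6011, 8206, 8040 and 4393 RPKM with 7aaRGD (difference -0.35, adjusted p = 0.332). For both genes, 7aaRGD samples 1 and 4 were well below vehicle and samples 2 and 3 close to it. H2-Ab1 and H2-Eb1 had the same order of samples, with 1210, 1926, 1661 and 933 RPKM for H2-Ab1 and 1452, 1999, 1854 and 1035 RPKM for H2-Eb1. H2-DMa was at 143, 144, 163 and 140 RPKM with vehicle and at 121, 135, 119 and 109 RPKM with 7aaRGD, again without overlap (difference -0.28, standard error 0.083, adjusted p = 0.141, the smallest of the 10).

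The groups of 2 of the 10 genes, H2-Aa and H2-DMa, did not overlap on the lower side, as was so for 4.06% of all 9737 genes. Of the 10 genes, 6 had an unadjusted p under 0.05, as did 1423 of all 9737 genes. None of the 10 passed in limma's test, against 0.647% of all genes. The 63 genes behind this share became 0 or 1 when any single sample was left out. Their number was 0 with the replicate block, with only these groups fitted and with 1 residual degree of freedom less. The H2-DO genes were not on the lower side: H2-Oa was at 24.2, 18.5, 31.9 and 19.7 RPKM with 7aaRGD and at 21.7, 28.3, 16.9 and 23.7 RPKM with vehicle. The median over the 10 genes was -0.33, against 0.01 over all genes. None of the microglia, monocyte or dendritic cell markers passed in this comparison (2 of 5, 0 of 4 and 1 of 4 tested had an unadjusted p under 0.05). The microglia list summed to 453 to 880 RPKM with 7aaRGD against 349 to 563 RPKM with vehicle, the dendritic cell list to 129 to 284 against 198 to 249 RPKM, and their part was not tested.

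With anti-PD-1 alone, the transactivator and both H2-DO genes were higher than with vehicle and the chain genes did not pass the threshold. Ciita was at 17.3, 14.6, 25.4 and 20.7 RPKM with vehicle and at 34.6, 39.7 and 30.9 RPKM with anti-PD-1, a rise of 0.84 (standard error 0.242, adjusted p = 0.0252). H2-Ob was at 2.10, 2.76, 1.96 and 1.76 RPKM and at 3.51, 4.04 and 4.62 RPKM, a rise of 0.69 (standard error 0.148, adjusted p = 0.00542). H2-Oa was at 24.5, 48.3 and 54.5 RPKM with anti-PD-1, a rise of 0.82 (standard error 0.274, adjusted p = 0.0451), although sample 1 lay within the vehicle range. The other 7 genes gave differences from 0.01 (H2-DMb1) to 0.45 (H2-Ab1, adjusted p = 0.0988) that did not pass. Every anti-PD-1 sample was above every vehicle sample in H2-Ab1, H2-Eb1 and Cd74, but the share of all genes with such ranges was not counted. Thus 3 of 10 genes rose, where 10.8% of all genes did.

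Of these 3, only H2-Ob kept its call in all alternatives that could be run for it (14 of them, adjusted p from 0.0048 to 0.0239). The call of H2-Oa was lost in 10 of 15 alternatives, among them without anti-PD-1 sample 2 (adjusted p = 0.163) or 3 (0.170) and without vehicle sample 1 (0.0873), 3 (0.0997) or 4 (0.0709), within a range of 0.00776 to 0.170. That of Ciita was lost without anti-PD-1 sample 1 (0.0592) or 2 (0.0986) and without vehicle sample 1 (0.0612) or 2 (0.0677), within a range of 0.0128 to 0.0986. With the replicate number as a replicate block 1 gene was called, H2-Ob.

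With the combination, 8 of the 10 genes rose against vehicle, where 17.5% of all genes did, and the H2-DO genes and Ciita rose most on the log2(RPKM + 1) scale. H2-Oa was at 71.5, 54.2 and 96.9 RPKM, H2-Ob at 6.14, 5.61 and 8.0 RPKM and Ciita at 51.4, 44.4 and 44.8 RPKM, all above every vehicle sample. Their differences were 1.65 (standard error 0.274, adjusted p = 0.000381), 1.27 (standard error 0.148, adjusted p = 2.93e-05) and 1.25 (standard error 0.242, adjusted p = 0.00118). H2-Ob is near the filter with vehicle (1.76 to 2.76 RPKM), and its difference ranged from 0.69 to 1.58 over 14 alternatives. Cd74 was at 12368, 12062 and 13791 RPKM, again the highest protein-coding gene in all 3 samples, and rose by 0.63 (standard error 0.172, adjusted p = 0.0102), without its call in the fit with no filter (adjusted p = 0.113).

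Of the chains, H2-Ab1 was at 3145, 2961 and 3270 RPKM with the combination against 2156, 1905, 1716 and 1714 RPKM with vehicle, and rose by 0.74 (standard error 0.186, adjusted p = 0.00594). H2-Eb1 was at 3156, 3148 and 3559 RPKM against 2322, 2146, 2123 and 1954 RPKM, and rose by 0.62 (adjusted p = 0.00984). H2-Aa, at 1785, 1800 and 2016 RPKM, was also above every vehicle sample, and the share of all genes with such ranges was not counted. The difference of H2-Aa, at 0.40, did not pass (adjusted p = 0.085). Of the H2-DM genes, H2-DMa was at 183, 165 and 200 RPKM and rose by 0.30 (adjusted p = 0.0148), and H2-DMb2 was at 38.2, 27.2 and 43.1 RPKM against 17.1, 22.3, 29.1 and 25.2 RPKM and rose by 0.61 (adjusted p = 0.0261). H2-DMb1, the more abundant β chain of H2-DM, was at 274, 252 and 259 RPKM and within the vehicle range in all 3 samples (difference 0.07, adjusted p = 0.613).

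Both H2-DM calls were lost when single samples were left out. H2-DMa did not pass without combination sample 3 (adjusted p = 0.0794, range over 15 alternatives 0.0088 to 0.0794). H2-DMb2 did not pass without combination sample 1 (0.0863) or 3 (0.119), or without vehicle sample 1 (0.0734) or 2 (0.0521), within a range of 0.0107 to 0.119. H2-Aa passed when only vehicle and combination were fitted (adjusted p = 0.00674).

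**Figure D3:**
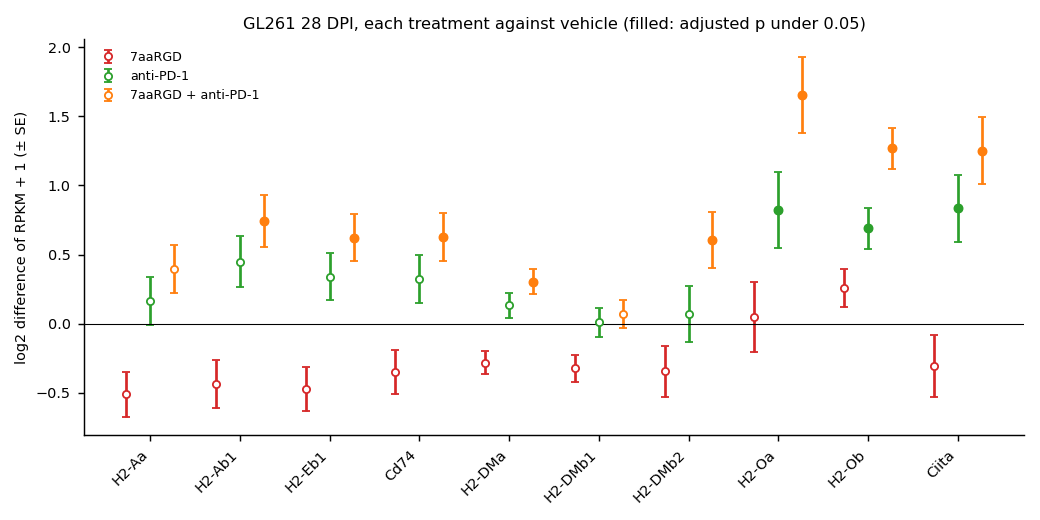
Differences from vehicle at 28 DPI for each class II gene, as log2 of RPKM + 1 with standard errors, for 7aaRGD (n = 4), anti-PD-1 (n = 3) and the combination (n = 3); filled points passed the threshold. The 7aaRGD points lie below 0 for 8 genes, and the combination points run from 0.07 (H2-DMb1) to 1.65 (H2-Oa).

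Set against the single treatments, the combination stood above 7aaRGD alone for all 10 genes and above anti-PD-1 alone in the means of all 10, but only the former passed the test. Against 7aaRGD, 10 of 10 genes were higher, where 13.0% of all genes were, with differences from 0.39 (H2-DMb1, adjusted p = 0.0104) to 1.60 (H2-Oa, adjusted p = 0.000748), and the median was 0.99. The chains differed by 0.91 (H2-Aa), 1.18 (H2-Ab1) and 1.09 (H2-Eb1), Cd74 by 0.98 and Ciita by 1.55, with adjusted p from 0.000412 to 0.00168. For H2-Aa the 7aaRGD samples reached from 660 to 1278 RPKM and the combination samples from 1785 to 2016 RPKM.

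Against anti-PD-1, the differences reached from 0.06 (H2-DMb1) to 0.83 (H2-Oa) with a median of 0.30, against -0.04 over all genes. In 6 of the 10 genes (H2-Aa, H2-Ab1, H2-Eb1, Cd74, H2-Ob and Ciita) every combination sample was above every anti-PD-1 sample, as was so for 6.23% of all genes. The first 4 of these followed each other closely within groups (r of 0.97 to 0.99), so this is not a count of independent genes. None of the 10 passed in limma's test, where 0.0411% of all genes did. An unadjusted p under 0.05 was found for 3 of the 10, and for 1459 of all 9737 genes. H2-Ob was nearest to the threshold, with 3.51 to 4.62 RPKM against 5.61 to 8.0 RPKM (difference 0.58, 95% interval 0.24 to 0.92, adjusted p = 0.117). For Cd74 the interval reached from -0.09 to 0.70 and for Ciita from -0.14 to 0.97.

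Whether 7aaRGD added more on top of anti-PD-1 than it did alone was tested with an interaction term. It was above 0 for all 10 genes, from 0.32 (H2-Ob) to 0.88 (H2-DMb2) with a median of 0.72, against -0.06 over all genes. For H2-Aa, 7aaRGD went with -0.51 without the antibody and with 0.23 with it, and the interaction was 0.74 (standard error 0.249, 95% interval 0.21 to 1.28). None of the 10 passed (adjusted p = 0.588 for 7 genes and up to 0.705), nor did any gene (0%). An unadjusted p under 0.05 was found for 7 of the 10, and for 794 of all 9737 genes.

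The ratio of H2-DMa to H2-Oa compares the α chains of H2-DM and its inhibitor H2-DO at the RNA level and leaves out their β chains. It was 2.00 ± 0.0562 (SD, n = 3) in naïve samples and 5.51 ± 0.549 in vehicle samples at 21 DPI, where the peptides gave 5.54 ± 0.483 (7aaRGD) and 5.27 ± 0.945 (7aaRAE). At 28 DPI it was 6.81 ± 1.98 (n = 4) with vehicle, 5.40 ± 1.48 (n = 4) with 7aaRGD, 4.23 ± 1.66 (n = 3) with anti-PD-1 and 2.56 ± 0.487 (n = 3) with the combination. All 3 combination samples, from 2.07 to 3.04, lay below all vehicle samples, from 5.11 to 9.64, and below all 7aaRGD samples, from 3.75 to 7.32, while 1 anti-PD-1 sample, at 3.01, lay within the range of the combination.

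**Figure D4:**
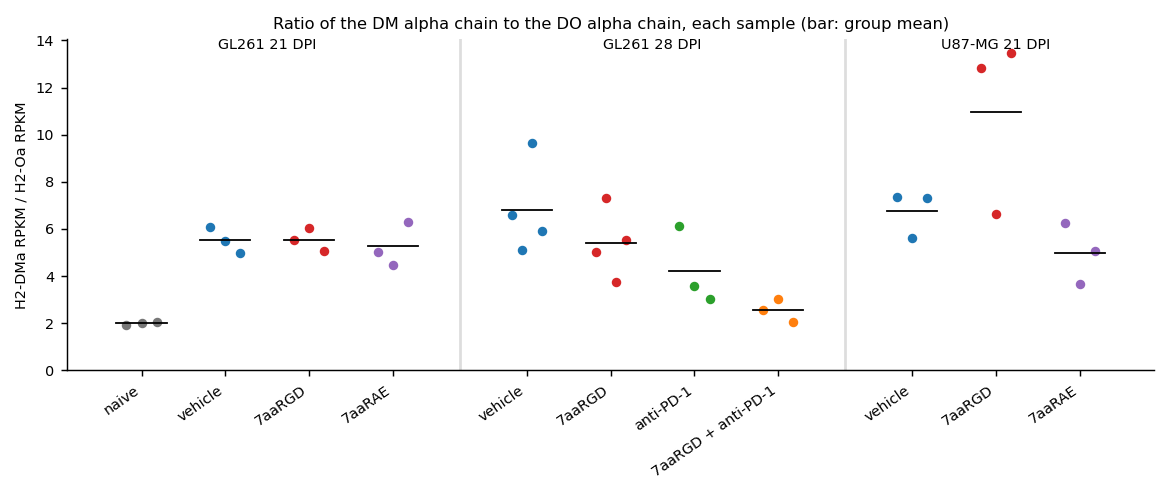
Ratio of H2-DMa to H2-Oa RPKM in each sample, by group and experiment, with a bar at the group mean. It is about 2.00 in naïve samples, 4.98 to 6.08 in vehicle samples of 21 DPI, and at 28 DPI lowest with the combination (2.07 to 3.04).

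Within the chain genes, the α chain was lower relative to the β chain where anti-PD-1 was given, within the 28 DPI experiment and as a description without a test. The ratio of H2-Aa to H2-Ab1 was 0.76 ± 0.019 (SD, n = 4) with vehicle and 0.72 ± 0.048 (n = 4) with 7aaRGD at 28 DPI, and 0.62 ± 0.026 (n = 3) with anti-PD-1 and 0.60 ± 0.026 (n = 3) with the combination. The samples with the antibody (0.57 to 0.65) lay below those without it (0.66 to 0.78). At 21 DPI, where no antibody was given, the ratio was as low, from 0.56 to 0.60 with vehicle, 0.53 to 0.56 with 7aaRGD and 0.54 to 0.55 with 7aaRAE. Both genes are highly expressed in all 14 samples, and the ratio rests on values of 660 RPKM or more. Cd74 stood at 3.87 to 4.97 times H2-Ab1 in these samples.

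Genes around the class II pathway were followed at 28 DPI from the same lists. Of 14 inducers and X-Y box factors, 5 were higher and 2 lower with anti-PD-1, and 7 were higher and 2 lower with the combination, with medians of 0.17 and 0.23. Over all genes, 10.8% were higher and 12.2% lower with anti-PD-1, and 17.5% higher and 25.8% lower with the combination. Among these, from vehicle to the combination, were Rfx5, a subunit of the X box factor (4.38 against 8.20 RPKM, means), Nfya (7.98 against 16.7 RPKM) and Irf1 (54.7 against 144 RPKM), all higher. Ifngr1 (181 against 115 RPKM) and Rfxap (9.44 against 6.14 RPKM) were lower. Of the 11 processing genes tested, Sppl2a, the protease that clears the membrane stub of Cd74, rose from 16.9 to 28.0 RPKM, Lgmn and Ctsl fell from 1987 to 1196 and from 136 to 90.2 RPKM, and the other 8 did not pass. Of 5 co-stimulatory genes, Icam1, Cd40 and Cd86 rose with the combination, and Icam1 and Cd40 with anti-PD-1. With 7aaRGD alone none of these genes passed. An unadjusted p under 0.05 was found for 1 of the 11 processing genes, 2 of the 14 inducers and 0 of the 5 co-stimulatory genes. Over all genes it was found for 1423 of 9737.

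Cell type markers moved with these groups as well. The monocyte markers summed to 27.5 to 58.2 RPKM with vehicle, 37.1 to 76.0 with 7aaRGD, 188 to 214 with anti-PD-1 and 226 to 353 with the combination, and all 4 were higher with either antibody treatment. Of 4 dendritic cell markers tested, Ccr7 and Cd209a were higher and Itgax was lower with the combination. Their summed level, set mainly by Itgax, was 198 to 249 RPKM with vehicle and 131 to 192 with the combination, while Xcr1 and Clec9a stayed at or below 1.54 RPKM in all groups. The 2 B cell markers tested did not pass in any of these comparisons, Ms4a1 and Pax5 were at or below 0.103 RPKM, and the B cell list summed to 20.7 to 32.2 RPKM over the 4 groups. Of the T and NK cell markers, Ncr1 and Nkg7 were higher with the combination, of 3 tested. Of the 5 microglia markers, P2ry12, Sall1 and Gpr34 were higher with the combination (sums of 349 to 563 RPKM with vehicle and 605 to 694 RPKM with the combination), and of 3 border-associated macrophage markers tested, Mrc1 and Cd38 were lower. The part of monocytes and of the other cell types in the class II differences was not tested.

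Over the 14 samples of 28 DPI, the mean log2 level of H2-Aa, H2-Ab1, H2-Eb1 and Cd74 was most closely followed, among genes outside the list, by Sp140 (Pearson r = 0.91), Pla2g16 (0.91), Ccl5, a T cell chemoattractant (0.88), Tmco6 (0.88) and Pgap2 (0.87). These samples share their group means, and within groups the same correlations were 0.77, 0.65, 0.58, 0.62 and 0.56. Each of the 4 genes followed the mean of the other 3 with r of 0.98 to 1.00, within groups 0.97 to 0.99. H2-DMa (0.90), Ciita (0.83) and H2-DMb1 (0.82) followed them less closely, and H2-Oa (0.73), H2-DMb2 (0.64) and H2-Ob (0.64) least, with H2-DMb2 at -0.08 and H2-Ob at -0.01 within groups. Ccl5 was at 101 to 266 RPKM with vehicle, 79.2 to 211 with 7aaRGD, 309 to 458 with anti-PD-1 and 471 to 687 with the combination.

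In U87-MG gliomas of nude mice the class II level was low, and its order between genes differed from that in GL261 gliomas. The tables were normalized separately, so levels are set side by side without a test. Vehicle samples had Cd74 at 396, 433 and 394 RPKM, H2-Aa at 57.6, 72.4 and 62.6 RPKM and Ciita at 1.93, 2.19 and 1.79 RPKM, of the order of the naïve C57BL/6 samples. H2-Ob, by contrast, was at 21.0, 19.4 and 16.9 RPKM, above every GL261 and naïve sample (1.76 to 8.70 RPKM), and H2-Oa at 6.02, 7.93 and 5.12 RPKM was below all of them (16.9 to 96.9 RPKM). The ratio of H2-Oa to H2-Ob was 0.33 ± 0.066 (SD, n = 3) in U87-MG vehicle samples and 8.92 ± 2.72 (n = 3) in GL261 vehicle samples of 21 DPI, and that of H2-DMb1 to H2-DMb2 was 1.70 ± 0.15 and 9.14 ± 2.20. H2-Ea-ps was at 30.3, 44.6 and 43.6 RPKM. The reads were aligned to the C57BL/6 reference, the MHC haplotype of the nude mice is not in the labels, and its part in these levels was not tested.

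With 7aaRGD, the genes of the H2-DO and H2-DM β chains were at lower levels in the U87-MG model without passing the threshold. H2-Ob was at 2.65, 10.4 and 2.61 RPKM, against 16.9 to 21.0 RPKM with vehicle (difference -1.91, standard error 0.376, adjusted p = 0.769). H2-DMb1 was at 11.5, 16.5 and 11.5 RPKM against 34.5, 40.4 and 32.4 RPKM (difference -1.39, standard error 0.162, adjusted p = 0.112). H2-DMb2 was at 15.1, 14.0 and 14.1 RPKM against 20.7, 21.7 and 20.7 RPKM (difference -0.52, standard error 0.164, adjusted p = 0.941). Samples 1 and 3 were nearly equal in H2-Ob and H2-DMb1, and sample 2 lay between them and vehicle in both. Together with H2-Oa these were 4 of 10 genes whose groups did not overlap on the lower side, as was so for 6.39% of all 9664 genes. None of the 10, and 0% of all genes, passed in limma's test, with 4 of the 10 and 365 of all 9664 genes at an unadjusted p under 0.05. The MHC haplotype of the animals in each pool is not in the labels and the reads were aligned to the C57BL/6 reference. The part of haplotype in these differences was not tested.

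Without 7aaRGD sample 2, H2-Ob (difference -2.46, adjusted p = 2.98e-05) and H2-DMb1 (-1.55, adjusted p = 0.0119) passed, within ranges over 12 alternatives of 2.98e-05 to 1.00 and of 0.0119 to 0.896. The other genes of the list did not share this order of samples. Cd74 was at 293, 298 and 615 RPKM, H2-Aa at 49.5, 58.6 and 122 RPKM and H2-Ab1 at 69.4, 59.7 and 171 RPKM, high in sample 3 alone. The same was so for H2-Eb1, at 70.9, 97.1 and 162 RPKM, and for Ciita, at 1.27, 1.15 and 3.10 RPKM. Vehicle samples had Ciita at 1.79 to 2.19 RPKM. H2-Ea-ps was also highest in sample 3, at 67.3, 42.1 and 374 RPKM, and H2-DMa was high in samples 1 and 3, at 61.8, 31.5 and 66.4 RPKM. The monocyte markers summed to 36.7 to 79.9 RPKM with 7aaRGD against 42.8 to 49.2 RPKM with vehicle. The microglia markers summed to 1511 to 3127 against 2450 to 3282 RPKM. None of these markers passed, and their part was not tested.

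The class II segment of chromosome 17 was examined from H2-Oa to H2-Ea-ps in these samples. It held 14 genes that passed the filter, of which 8 are on the list. The 4 genes between H2-DMb1 and H2-Ob, which are the peptide transporter genes Tap1 and Tap2 and the immunoproteasome genes Psmb8 and Psmb9, were lower in all 3 7aaRGD samples than in vehicle by 0.18 to 0.63. H2-DMb1 and H2-Ob on either side of them were lower by 1.55 and 2.46 in sample 1, by 1.07 and 0.81 in sample 2 and by 1.55 and 2.47 in sample 3. Sample 2 thus had the smallest difference in H2-DMb1 and H2-Ob. Of the 4 genes between them, it had the largest difference in Psmb9 and Psmb8, the smallest in Tap2, and in Tap1 the value of sample 3 (-0.42 in both). The part of the MHC haplotype of the pooled animals in this order of samples was not tested.

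**Figure D5:**
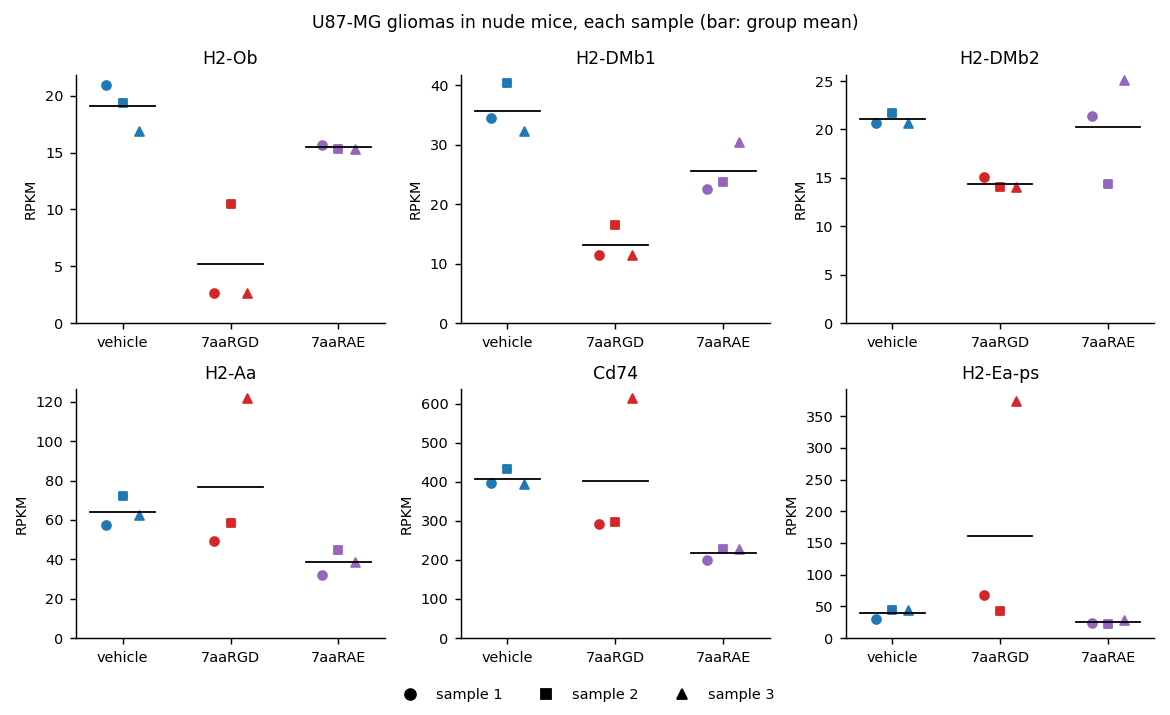
RPKM in each U87-MG sample for 5 class II genes and H2-Ea-ps, with symbols for samples 1 to 3 of a group (column order, not paired between groups) and a bar at the group mean. H2-Ob and H2-DMb1 are lowest in 7aaRGD samples 1 and 3 (2.65 and 2.61 RPKM, and 11.5 RPKM in both), and Cd74, H2-Aa and H2-Ea-ps are highest in 7aaRGD sample 3.

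With 7aaRAE, all 10 genes had a mean below vehicle, and 8 of the 10 groups did not overlap on the lower side, as was so for 9.46% of all genes. Cd74 was at 200, 228 and 227 RPKM (difference -0.90, standard error 0.249, adjusted p = 0.411), H2-Eb1 at 58.8, 78.1 and 76.7 RPKM against 112, 133 and 124 RPKM (difference -0.79, adjusted p = 0.496) and Ciita at 0.84, 1.02 and 0.95 RPKM (difference -0.62, adjusted p = 0.535). H2-Ob, at 15.7, 15.3 and 15.4 RPKM, was below the vehicle samples but above all 7aaRGD samples. In limma's test 0 of the 10 passed, where 0.0103% of all genes did. An unadjusted p under 0.05 was found for 6 of the 10, and for 746 of all 9664 genes. When only 7aaRAE and vehicle were fitted, Cd74 (adjusted p = 0.024) and H2-Ab1 (adjusted p = 0.0472) passed. The monocyte markers summed to 42.8 to 49.2 RPKM with vehicle and 16.8 to 27.5 with 7aaRAE, with 3 of the 4 not overlapping, the microglia markers to 2450 to 3282 and 1672 to 2566 RPKM, and their part was not tested.

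Between the 2 peptides in this model, at the same dose and time, 0 of the 10 genes and 0% of all genes passed. An unadjusted p under 0.05 was found for 8 of the 10, and for 326 of all 9664 genes. The 7aaRGD samples were lower in H2-Ob (-1.63, 95% interval -2.48 to -0.78, adjusted p = 1.00) and higher in the mean of Cd74 (0.79, interval 0.23 to 1.35), for which sample 3 is the highest. Without 7aaRGD sample 2, H2-Ob passed (-2.18, adjusted p = 8.23e-05, range over 12 alternatives up to 1.00).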

How the data were processed

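CD11b+ cells were sorted from mouse brains and their RNA sequenced in 35 samples of 11 groups. According to the methods and processing notes, the authors used Trimmomatic for trimming, STAR for alignment to mm10 and HTSeq (version 0.11.1) for counting, and then computed RPKM. The deposited tables hold RPKM plus a constant of 2, as the sums of value times gene length showed, and 2 was subtracted here. Some values then lie slightly below 0. Read counts were not used here, the depth is unknown, and no counting error can be given.

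Log2(RPKM + 1) was fitted with limma (version 3.58.1, R 4.3.3, empirical Bayes with a mean trend) within each of the 3 tables over the protein-coding genes whose mean reached 1 RPKM, with Benjamini-Hochberg adjustment over all of them and a threshold of 0.05. Tumor-bearing groups of a table shared 1 estimate of the spread, and naïve and vehicle samples were fitted on their own. A range statement compares lowest and highest samples, without a test. The fit was tested on simulated data. The members, gene lists and motifs were chosen with earlier results of these data known. All members were named, with up to 4 genes of each other list that passed (smallest adjusted p first, else up to 2 as values) and the 5 genes most like the chain genes by correlation. Ctsd, Nfya and some markers were named after their values were seen. Deviations of same-numbered samples correlated above 0.1 in 1 of 9 pairs at 21 DPI (from -0.77 to 0.12). At 28 DPI this was so for 3 of 19 pairs (from -0.50 to 0.37). No pairing was seen, but 1 component of the spread is missing at both times, so this check cannot show that pairing was absent. The main fit counts that component in its degrees of freedom, so its standard errors can be too small. Replicates at 21 DPI are pools of animals and at 28 DPI single animals. Alternatives were the pseudocount, the filter, the scaling, the samples fitted, a replicate block, each sample left out and, added after seeing the data, 1 residual degree of freedom less. Labelled samples without a column (naïve nude mice and sample 4 of the anti-PD-1 and the combination group) were not analysed here. Some genes of the lists are not reported here and were left out of their counts and sums.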

Additional observations from a re-analysis of the deposited data

Results flagged for a closer look

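A single result outside the comparisons drew attention. H2-Ea-ps, which is not among the 10 genes, reached 374 RPKM in 1 U87-MG sample with 7aaRGD, in a table without naïve samples, where the other 8 samples lay between 22.5 and 67.3 RPKM. H2-Aa, H2-Ab1 and Cd74 were also highest in that sample. No group of 4 samples held a sample far from the others for any of the 10 genes (0 of 20 tests by the gap to the nearest sample, of which chance would mark about 1 in 20).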

How the results depend on the processing

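Over the alternatives, none of 78 differences of the named genes reversed. Of their alternative values, 1141 stayed on the side of the threshold that is reported, 11 came to pass it and 21 no longer passed it. The number of genes called with anti-PD-1 against vehicle was 3 as reported, 5 when only these groups were fitted, 1 with the replicate block and 1 to 2 when single samples were left out. In the U87-MG model it was 0 as reported for each comparison, 0 to 2 for 7aaRGD against vehicle and 0 to 1 for 7aaRGD against 7aaRAE when single samples were left out, and 2 for 7aaRAE against vehicle when only these groups were fitted. The other 180 counts stayed within 1.5 times of the reported one, and the cause of these shifts was not tested. With the replicate block, Ciita (adjusted p = 0.0675) and H2-Oa (0.0809) with anti-PD-1 no longer passed in limma's test, and the block changed no other call. Beyond single samples and the block, the call of H2-Oa was lost with no filter (0.0802), with median-of-ratios scaling (0.0531), when only these groups were fitted (0.062) and with 1 residual degree of freedom less (0.061). With only these groups fitted, H2-Ab1 (0.0137), H2-Eb1 (0.0218) and Cd74 (0.0375) passed. No paired analysis was possible because the columns carry no replicate number in the U87-MG table, the one table where the block was not run. H2-Ob at 28 DPI and Ciita in U87-MG gave no value with a minimum mean of 5 RPKM.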
